A study of Mus musculus with 4 samples.

Results

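Signals were examined for a panel of 10 mouse genes whose human counterparts carry glaucoma mutations or risk variants, other than the gene for myocilin itself: Optn, Tbk1, Cav1, Cav2, Tek, Angpt1, Cyp1b1, Ltbp2, Wdr36 and Gas7. They were matched by symbol to the platform annotation, and each probe set that carried exactly 1 symbol was taken if that symbol was in the panel. This gave 19 probe sets for 9 genes, among 18193 genes with such a probe set on the array, and Optn had no match by this rule and was not analysed here. Of the 19 probe sets, 15 exceeded the level filter, a mean signal of about 30.0, and were tested. They covered all 9 matched genes. The other 4, 3 of Gas7 and 1 of Cyp1b1, stayed below it with single signals between 1.35 and 17.2.

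RNA came from mouse eye tissue labelled retina, taken from control mice and from transgenic mice with myocilin in the aqueous humor. Each probe set has 4 values: 2 from control arrays, of which the labels call the second a technical replicate of the first, and 2 from myocilin transgenic arrays. The control arrays therefore count as 1 sample. The sources used here do not state strain, age, the promoter that drives the transgene, pooling or whether the transgenic arrays came from separate animals. In the main fit, SE and p-values rest on the gap between the 2 transgenic arrays, which may be technical, pooled with the spread of other probe sets. The gap between the control arrays does not enter them. The labels reason that some aqueous humor reaches the back of the eye, and the comparison asks how RNA of the tissue labelled retina differs when that fluid is rich in myocilin.

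Glaucoma is a loss of retinal ganglion cells and their axons, for which raised eye pressure is the main known risk factor. Pressure is set by how fast aqueous humor drains through the trabecular meshwork and Schlemm canal. The panel touches several steps of that biology: the Angpt1-Tek pathway builds Schlemm canal, Cyp1b1 and Ltbp2 are needed for a normally formed front of the eye, caveolins shape pits in the membrane of meshwork and canal cells, and Optn and Tbk1 act together in selective autophagy in neurons.

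The tissue label was checked against marker genes. None of 11 rod photoreceptor genes with a probe set had a mean signal above 150, the trimmed mean of every array (0 of 11), and 1 of 10 retinal ganglion cell genes did, Rbpms at 269. All 9 genes of corneal and surface epithelium, all 8 of fibroblasts and stroma, 11 of 12 of pigment epithelium and melanocytes and 9 of 10 of skeletal muscle exceeded 150. The defining ganglion cell gene Pou4f1 gave 18.7 and 13.4 on the control against 14.4 and 15.5 on the transgenic arrays. The rod gene Gnat1 gave 14.3 and 33.5 against 21.3 and 12.4. Of 9 genes of Mueller glia and astrocytes 5 exceeded 150, among them Glul at 4765, Dkk3 at 2170 and Rlbp1 at 1315. Glul, Dkk3, Vim and Apoe are made in other tissues too, and Rlbp1 also in pigment epithelium. Probe sets differ in brightness for reasons other than RNA level, so the comparison with 150 is a rough one.

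None of the 15 tested probe sets passed the threshold (0 of 15 in limma at an adjusted p of 0.05), where 0.0777% of all 27022 probe sets tested did. Adjusted p ran from 0.384 to 0.998. At an unadjusted p of 0.05, 4 of 15 passed, 3 higher and 1 lower in the transgenic arrays, against 7.06% of all probe sets, 4.14% higher and 2.92% lower. They were both probe sets of Angpt1, the brighter one of Cav2 and the dimmer one of Tbk1. The dimmer Angpt1 probe set exceeded the level filter only through its transgenic signals, so it had to differ and the count is a description. Without it, 3 of 14 had such a p, 2 higher and 1 lower. When all 4 arrays were taken as separate samples with the replicate number as a block, 4 of 15 passed the adjusted threshold, the same 4, and 3 of 14 without that probe set, against 6.44% of all probe sets. The labels do not pair these arrays. Arrays of the groups did not overlap for 7 of the 15, where 44.7% of all probe sets showed the same. The 4 of these that were higher (3 of 14 without the dimmer Angpt1 probe set) compare with 21.1% and the 3 that were lower with 23.6%. The median change over the 15 was −0.02, equal to the −0.02 over all probe sets tested, and the median size was 0.22 against 0.16. All changes are differences of log2(signal + 16), transgenic minus control, which understate the change of dim probe sets.

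**Figure D1:**
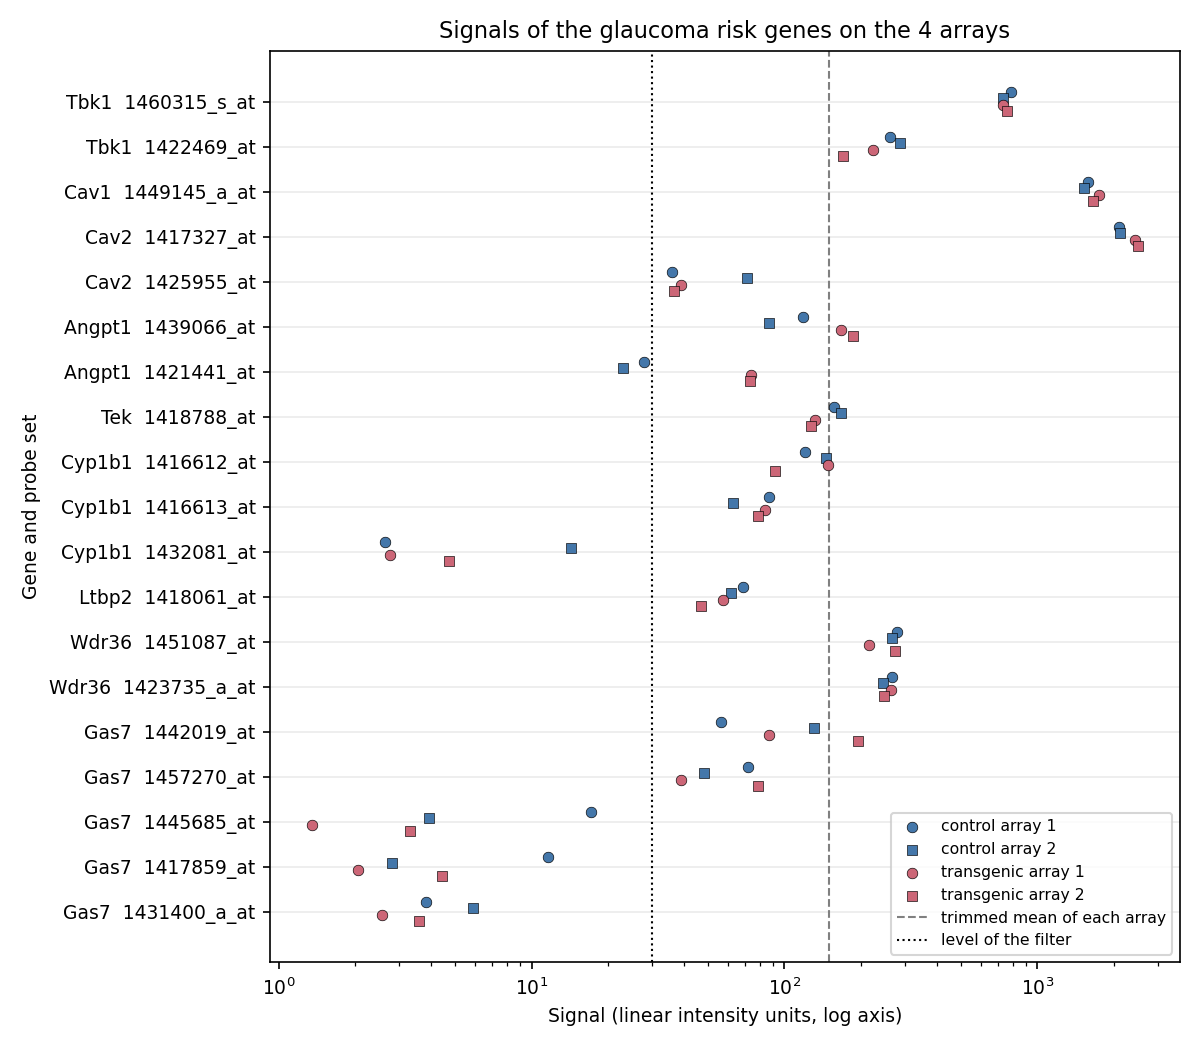
Signal of each of the 19 probe sets (rows) on the 4 arrays (linear intensity units on a log axis), with control arrays in blue and transgenic arrays in red. The dotted line marks the filter level of 30.0 and the dashed line the trimmed mean of 150. Both Angpt1 rows show the red points to the right of the blue ones, while on both Gas7 rows above the filter the groups overlap.

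The plot of signals by array shows where the groups separate. Angpt1, Cav1 and the brighter Cav2 probe set had both transgenic arrays above both control arrays. Tek, Ltbp2 and the dimmer Tbk1 probe set had both below. Wdr36 and the tested probe sets of Cyp1b1 and Gas7 overlapped.

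Angpt1 had the largest differences of the panel. It encodes angiopoietin 1, the secreted ligand that activates the receptor Tie2 and is needed to form Schlemm canal. On probe set 1439066_at the signals were 119 and 86.6 on the control against 168 and 187 on the transgenic arrays. The transgenic mean of 177 ± 14.0 (SD, n = 2) was 1.73 times the control mean of 103, and the change was 0.72 ± 0.20 (log2, SE; limma adjusted p = 0.393). The groups did not overlap, and the change was larger than the gap of 0.39 between the control arrays.

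A second Angpt1 probe set, 1421441_at, gave 27.9 and 23.0 on the control against 73.8 and 73.2 on the transgenic arrays. The transgenic mean was 73.5 ± 0.415 (SD, n = 2) and the control mean 25.4. The control signals lay below the filter level, so no fold is given, and this probe set was tested only because its transgenic signals were high. Its change of 1.11 ± 0.30 (log2, SE) also did not pass (limma adjusted p = 0.384). By unadjusted p 1439066_at ranked 259 of the 27022. The Angpt1 probe sets read the same RNA and are not independent samples. Among the 2000 tested probe sets nearest in level to 1439066_at the median gap between the control arrays was 0.16 and the median size of the change 0.15. Without control replicate 2 the change of 1439066_at was 0.52, and without control replicate 1 it was 0.91.

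Summed signals of most marker lists were also higher on both transgenic arrays, while those of rods and retinal ganglion cells were lower on both. The summed signal of the 8 fibroblast and stroma genes, a cell class that makes angiopoietin 1, was 22563 and 21501 on the control against 28527 and 28589 on the transgenic arrays. For 10 skeletal muscle genes the sums were 13309 and 13696 against 21025 and 21132. No gene of these lists was listed at 0, and 8 of 8 and 9 of 10 of them exceeded 150. The 10 mural cell genes summed to 9533 and 9539 on the control against 10030 and 10295 on the transgenic arrays. Singly they did not move one way, with 6 above 0 and 4 below. Of those with an unadjusted p under 0.05 in limma, Rgs5 (−0.40), Notch3 (−0.40) and Abcc9 (−0.38) were lower and Tagln (0.27) was higher, with adjusted p between 0.419 and 0.681. The part of these cell types in the Angpt1 difference was not tested. In tissue RNA, more cells of a type and more RNA per cell cannot be told apart.

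**Figure D2:**
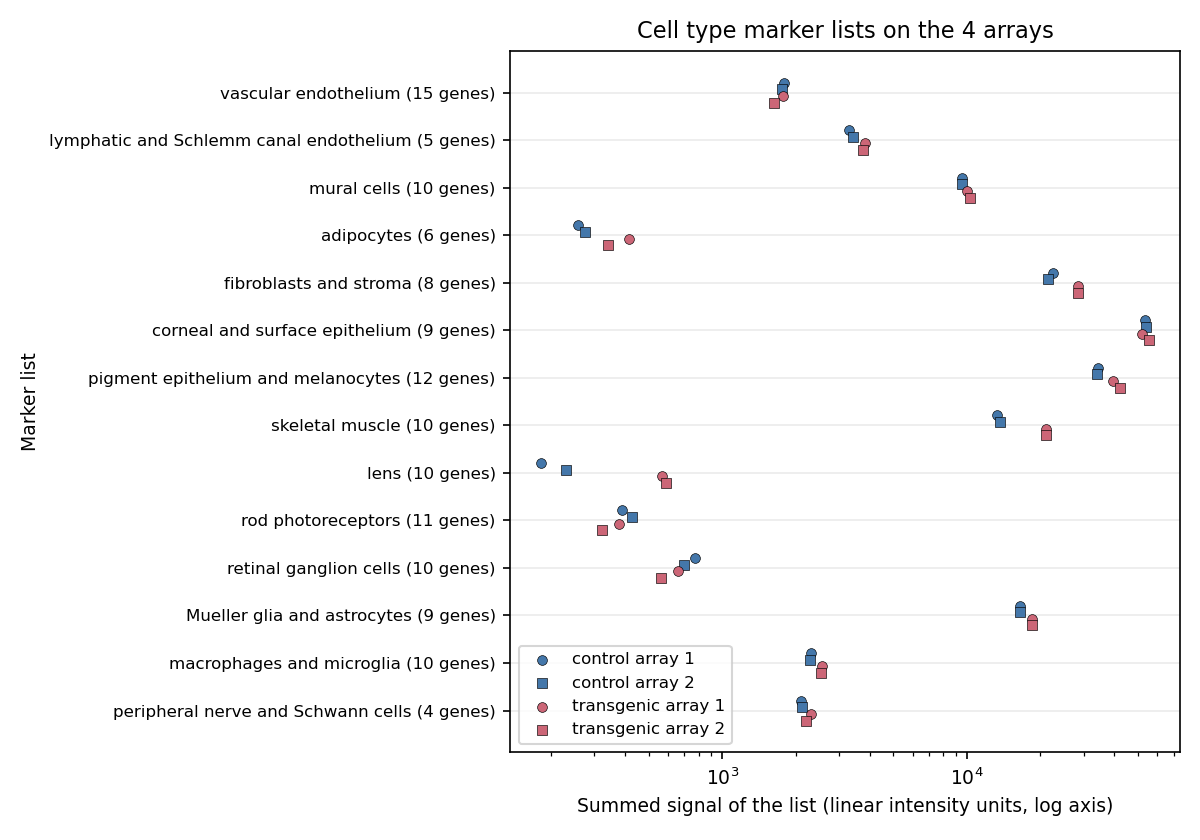
Summed signal of each cell type marker list (rows; linear intensity units on a log axis) on the 4 arrays, control in blue and transgenic in red, 1 probe set a gene. Sums of most lists lie higher on both transgenic arrays, among them the fibroblast, pigment, muscle, lens, mural cell, glia and macrophage sums. Rod and retinal ganglion cell sums lie lower on both. Corneal and vascular endothelium sums overlap between the groups, and the vascular endothelium sums lie between 1623 and 1786 on all 4.

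Tek, which encodes the endothelial receptor Tie2, stood on the other side of 0 from its ligand. Its signals were 158 and 168 on the control against 133 and 127 on the transgenic arrays. Both transgenic values lay below both control values. The transgenic mean of 129.9 ± 3.85 (SD, n = 2) was 0.799 times the control mean, a change of −0.29 ± 0.20 (log2, SE; limma adjusted p = 0.842), with a 95% interval from −0.73 to 0.14.

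Markers of vascular endothelium, the cells in which Tek is mainly expressed, summed over 15 genes to 1786 and 1754 on the control against 1778 and 1623 on the transgenic arrays. Of these genes 3 exceeded 150, and Tie1, the second receptor of the Tie family, stayed under the filter at 34.6 and 14.0 against 18.9 and 12.5. Of the 14 tested, 7 were above 0 and 7 below, and 0 passed in limma. Both transgenic arrays lay below both control arrays for 6 of them and above for 1. Over all probe sets tested these shares were 23.6% and 21.1%. The largest change was that of Flt1, −0.60 ± 0.29 (limma adjusted p = 0.736). Pecam1, an adhesion molecule of endothelial junctions, was at 70.0 and 48.8 against 56.0 and 77.6, and its groups overlapped. The Schlemm canal and lymphatic gene Prox1 was dim as well, with 24.0 and 18.9 against 19.1 and 14.8. Of the 5 genes of its list with a probe set, 2 exceeded 150, and both were higher on both transgenic arrays. Pdpn gave 1255 and 1238 against 1455 and 1409, and Reln 1909 and 2035 against 2207 and 2197. Neither passed (limma adjusted p = 0.782 and 0.822), and which cells gave these signals was not tested. The groups overlapped for Flt4 and Lyve1.

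The rest of the angiopoietin pathway gave no call. Of 13 tested genes 0 passed in either direction in limma and 0 had an unadjusted p under 0.05. There were 2 above 0 and 11 below, with a median of −0.16 against −0.02 over all probe sets tested. Angpt2, the ligand that mostly opposes Angpt1, had 128 and 114 on the control against 135 and 146 on the transgenic arrays, a change of 0.20 ± 0.20 (adjusted p = 0.921). Ptprb, the phosphatase that removes phosphate from Tie2, stood at −0.24 ± 0.18 (adjusted p = 0.871). The largest changes of the list were −0.32 for Foxo1, the transcription factor held in check by Tie2 signalling, −0.31 for Tnip2 and −0.30 for Pik3r1, a regulatory subunit of PI3 kinase. Their adjusted p lay between 0.729 and 0.923.

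Cav1 and Cav2 encode caveolins, the membrane proteins that together coat caveolae. The genes lie next to each other on chromosome 6 in the same orientation, with 25150 bases from the Cav2 start to the first Cav1 start in GRCm38.p6. The 250 bases before each start, from RefSeq on that build, are shown for Cav2 and for the first of 2 Cav1 starts, because Cav1 and the brighter Cav2 probe set had higher signals on both transgenic arrays. Capitals mark 3 motifs searched on both strands: the GC box GGGCGG, the CCAAT box CCAAT and the TATA box TATAAA. They occur in 32.7%, 33.8% and 12.4% of 32851 promoter windows of the same length.
Cav2, chr6:17280935-17281184, plus strand: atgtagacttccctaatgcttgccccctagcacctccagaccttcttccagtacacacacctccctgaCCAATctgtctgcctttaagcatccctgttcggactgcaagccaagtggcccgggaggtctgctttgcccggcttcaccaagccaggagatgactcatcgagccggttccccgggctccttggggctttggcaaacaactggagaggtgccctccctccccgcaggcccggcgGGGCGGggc
Cav1, chr6:17306085-17306334, plus strand: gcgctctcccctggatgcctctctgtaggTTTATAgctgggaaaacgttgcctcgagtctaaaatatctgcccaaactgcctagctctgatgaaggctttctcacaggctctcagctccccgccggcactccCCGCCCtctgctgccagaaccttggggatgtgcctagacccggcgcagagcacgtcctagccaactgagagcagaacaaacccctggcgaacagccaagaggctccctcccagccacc

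The Cav2 window holds a GC box that begins 9 bases before the start (−9) and a CCAAT box at −182. The Cav1 window holds a GC box at −118 and, at −221, a TATA box, both on the opposite strand. Of the 3 motifs these windows share the GC box. The counts of CpG were 10 in each, against a median of 6 over all windows. The window before the second Cav1 start, 1305 bases further on, holds 12 CpG and none of the 3 motifs (0 matches of each). It is not shown, and the signals do not tell from which start the RNA came. A match describes the letters only.

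Cav2 on probe set 1417327_at gave 2105 and 2126 on the control against 2439 and 2509 on the transgenic arrays. The transgenic mean of 2474 ± 49.6 (SD, n = 2) was 1.17 times the control mean of 2115, a change of 0.22 ± 0.10 (log2, SE; limma adjusted p = 0.684). This change was several times the gaps of 0.01 and 0.04 within the groups, and the groups did not overlap. These gaps were smaller than is usual at this level. For tested probe sets of like level the median gap was 0.07 between control and 0.08 between transgenic arrays. The median size of the change there was 0.15. The second Cav2 probe set, 1425955_at, was dim and pointed the other way. It gave 36.1 and 71.2 against 39.1 and 36.8, a change of −0.32 ± 0.33 (adjusted p = 0.921), smaller than the 0.74 between its control arrays.

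Cav1 gave 1580.3 and 1524 on the control against 1756 and 1662 on the transgenic arrays. Both transgenic values exceeded both control values, by a narrow margin. The mean of 1709 ± 66.3 (SD, n = 2) was 1.10 times that of control, and the change of 0.14 ± 0.10 (log2, SE) did not pass (limma adjusted p = 0.872). Among the 2000 tested probe sets of like level the median size of the change was 0.14.

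The other caveola genes gave no call. Of 11 tested, 0 passed in either direction in limma, 4 were above 0 and 7 below, with a median of −0.07 (−0.16 to −0.0067 when 1 array was left out). Ehd2, an ATPase at the neck of caveolae, had the largest change, −0.44 ± 0.17 (adjusted p = 0.630), with 211 and 327 on the control against 185 and 195 on the transgenic arrays. It was the 1 gene of the list with an unadjusted p under 0.05. A further probe set of Ehd2 stood at −0.46 and its other 3 at −0.14, −0.14 and 0.07. Cavin1, the coat protein without which caveolae do not form, stood at −0.36 ± 0.20 and Ehd4 at −0.33 ± 0.16. For Cavin1 the signals were 455 and 308 against 347 and 238. These groups overlapped, and the gap of 0.54 between its control arrays was larger than the change. The muscle caveolin Cav3 was below the filter, at 26.4 and 35.9 against 43.9 and 10.9.

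Tbk1, the kinase that phosphorylates optineurin and other autophagy receptors, gave different pictures on its probe sets. On 1460315_s_at the signals were 785 and 729 on the control against 733 and 759 on the transgenic arrays. The groups overlapped and the change was −0.02 ± 0.12 (limma adjusted p = 0.994), with a 95% interval from −0.28 to 0.24. On 1422469_at the signals were 262 and 288 against 224 and 169.8. Here the groups did not overlap, and the transgenic mean of 197 ± 38.2 (SD, n = 2) was 0.716 times the control mean of 275, a change of −0.46 ± 0.19 (limma adjusted p = 0.655). The platform annotation assigns both probe sets to the same transcript record, so no direction is given for Tbk1.

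Partners of Optn and Tbk1 in autophagy and innate signalling were close to balanced. Of 24 tested, 0 passed and 0 had an unadjusted p under 0.05 in limma, with 12 above 0, 12 below and a median of 0.02. Sting1, the sensor adaptor upstream of Tbk1, had the largest change, −0.59 ± 0.28 (adjusted p = 0.728), with 93.9 and 123 on the control against 80.0 and 54.7 on the transgenic arrays. Ulk1, the kinase that starts autophagy, stood at −0.45 ± 0.22 and Htt at −0.30 ± 0.22. The autophagy receptor Sqstm1 gave 1522 and 1739.6 against 1666 and 1744, and these groups overlapped.

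Cyp1b1 encodes a cytochrome P450 whose loss causes congenital glaucoma. Probe set 1416612_at gave 121 and 146 on the control against 149 and 91.4 on the transgenic arrays. The transgenic arrays lay on either side of both control arrays, and the change was −0.16 ± 0.26 (log2, SE; limma adjusted p = 0.963). Probe set 1416613_at gave 86.9 and 62.7 against 84.1 and 79.0, a change of 0.11 ± 0.25 (adjusted p = 0.975). The third, 1432081_at, was not tested, with 2.64 and 14.4 against 2.75 and 4.72. No probe set of Cyp1b1 showed a difference beyond the spread between arrays, and the 95% interval of the first runs from −0.74 to 0.42.

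Among genes of the same enzyme family and its regulators, 8 were tested and 0 passed or had an unadjusted p under 0.05 in limma. They had a median of 0.03, with 4 above 0 and 4 below. The relatives Cyp1a1 and Cyp1a2 were below the filter, Cyp1a1 at 36.6 and 20.4 against 6.39 and 21.6. Ahr, the receptor that induces these enzymes, gave 284 and 332 against 293 and 299, a change of −0.05 ± 0.15. The largest changes were 0.32 ± 0.24 for Arnt2, 0.19 ± 0.10 for Cyb5a and 0.16 ± 0.13 for Tiparp, with adjusted p between 0.782 and 0.884.

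Ltbp2 encodes a matrix protein of the ciliary zonule that resembles the TGF-beta binding proteins. Its 1 probe set gave 68.5 and 61.2 on the control against 57.4 and 46.7 on the transgenic arrays. The groups did not overlap, but the change of −0.25 ± 0.30 (log2, SE; limma adjusted p = 0.941) was close to the gap of 0.23 between the transgenic arrays. Its 95% interval from −0.90 to 0.40 is wide.

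Of 18 tested genes of the LTBP family and the microfibrils, 0 passed in limma, while 4 had an unadjusted p under 0.05, all on the higher side, where 7.06% of all probe sets had such a p and 4.14% were higher. The list held 9 genes above 0 and 9 below, with a median of −0.01 that ran from −0.074 to 0.070 when 1 array was left out. Of the 8 fibroblast and stroma genes, which lie in cells that also make microfibrils, 4 had an unadjusted p under 0.05, all higher: Kera at 1.54, which passed (limma adjusted p = 0.000286), Lum at 0.55, Dcn at 0.34 and Col3a1 at 0.28. Of the rest, Fbln1 (0.20) and Col1a2 (0.14) stood above 0, and Col1a1 (−0.06) and Pdgfra (−0.13) below. None of the 8 was listed at 0, and their part in the microfibril values was not tested. Mfap5, a microfibril glycoprotein, stood at 0.42 ± 0.13 (adjusted p = 0.484), with 393 and 373 on the control against 520.4 and 512 on the transgenic arrays. The other 3, named after their values were seen, were Fbln5 at 0.36, Ltbp3 at 0.32 and Loxl1 at 0.28. Ltbp3 had a dimmer tested probe set at −0.47, so its direction depended on the probe set. Fbn2 stood at −0.37 ± 0.20 and Adamtsl4 at −0.36 ± 0.18. Ltbp1 and Ltbp4, the other relatives of Ltbp2 on the list, stood at −0.05 and −0.35.

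Wdr36 encodes a WD-repeat protein of the small subunit processome, the complex that makes 18S ribosomal RNA. Its probe sets gave even signals. On 1451087_at they were 279 and 266 on the control against 217 and 275 on the transgenic arrays, a change of −0.15 ± 0.18 (limma adjusted p = 0.941). On 1423735_a_at they were 266 and 244 against 264 and 248, a change of 0.00 ± 0.16 (adjusted p = 0.998). The groups overlapped on both, and the intervals ran from −0.54 to 0.24 and from −0.35 to 0.35.

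Other processome genes lay evenly on both sides of 0. Of 31 tested, 0 passed in limma, 16 were above 0 and 15 below, with a median of 0.01. Imp3, with an unadjusted p under 0.05 and named after its value was seen, stood at 0.29 ± 0.13 (adjusted p = 0.685). The largest changes were −0.47 ± 0.23 for Utp23, −0.46 ± 0.23 for Pwp2 and −0.46 ± 0.30 for Nol10, with adjusted p between 0.739 and 0.828. Fbl, the methyltransferase fibrillarin, gave 735 and 886 against 811 and 837.

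Gas7 encodes an F-BAR protein that links membranes to actin, and it was the most variable gene of the panel within groups. On 1442019_at the signals were 55.9 and 131 on the control against 86.7 and 195 on the transgenic arrays. The technical control pair differed by 1.04 on the log2 scale and the transgenic pair by 1.04, against a change of 0.52 ± 0.34 between the groups (limma adjusted p = 0.838). On 1457270_at they were 71.5 and 47.9 against 38.8 and 78.5, a change of −0.05 ± 0.35 (adjusted p = 0.995).

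The 3 untested Gas7 probe sets gave no usable level. On 1445685_at the signals were 17.2 and 3.93 on the control against 1.35 and 3.30 on the transgenic arrays. Those on 1417859_at were 11.6 and 2.80 against 2.06 and 4.43. On 1431400_a_at they were 3.82 and 5.84 against 2.57 and 3.60. With both groups under the filter no fold is given. Of 15 other F-BAR genes tested, 0 passed and 0 had an unadjusted p under 0.05 in limma, with 4 above 0, 11 below and a median of −0.12. The largest changes were −0.36 for Pstpip2, −0.34 for Srgap2 and −0.30 for Srgap3, with adjusted p between 0.746 and 0.873.

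**Figure D3:**
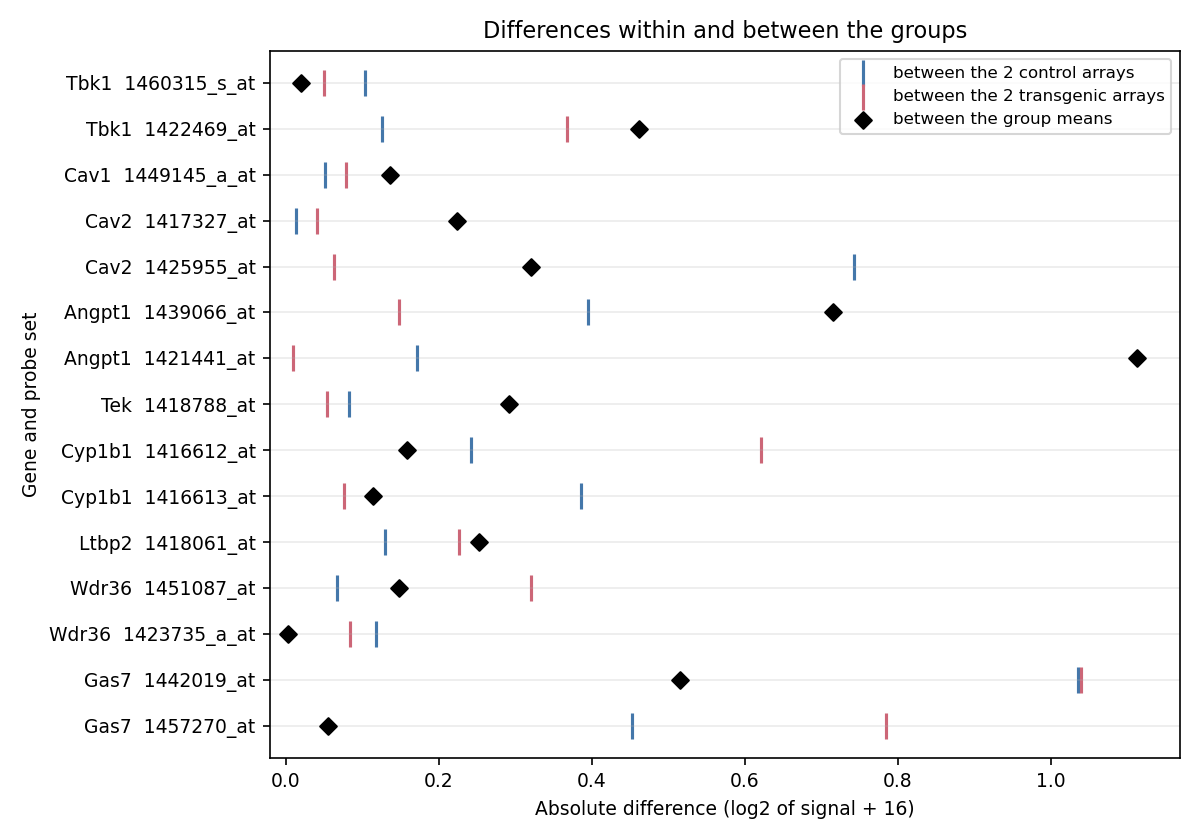
Absolute differences on the log2(signal + 16) scale for the 15 tested probe sets (rows): between the 2 control arrays (blue), between the 2 transgenic arrays (red) and between the group means (black diamonds). The diamond lies beyond both bars for 7 probe sets and not for the other 8, where both tested probe sets of Gas7 have the widest gaps within the transgenic group. The 7 include the dimmer Angpt1 probe set, which was tested only through its transgenic signals.

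The plot of differences within and between groups sets each change against the arrays' own spread. The change exceeded both gaps within groups for 7 of the 15 probe sets, the same 7 whose groups did not overlap. Without the dimmer Angpt1 probe set, which had to differ, it was 6 of 14. For Gas7, Cyp1b1, Wdr36, the brighter Tbk1 and the dimmer Cav2 probe set it did not. A change larger than both gaps leaves no room for overlap, so the match of these counts is not a second check. The share over all probe sets tested was not computed. For the same reason it cannot exceed the 44.7% without overlap.

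**Figure D4:**
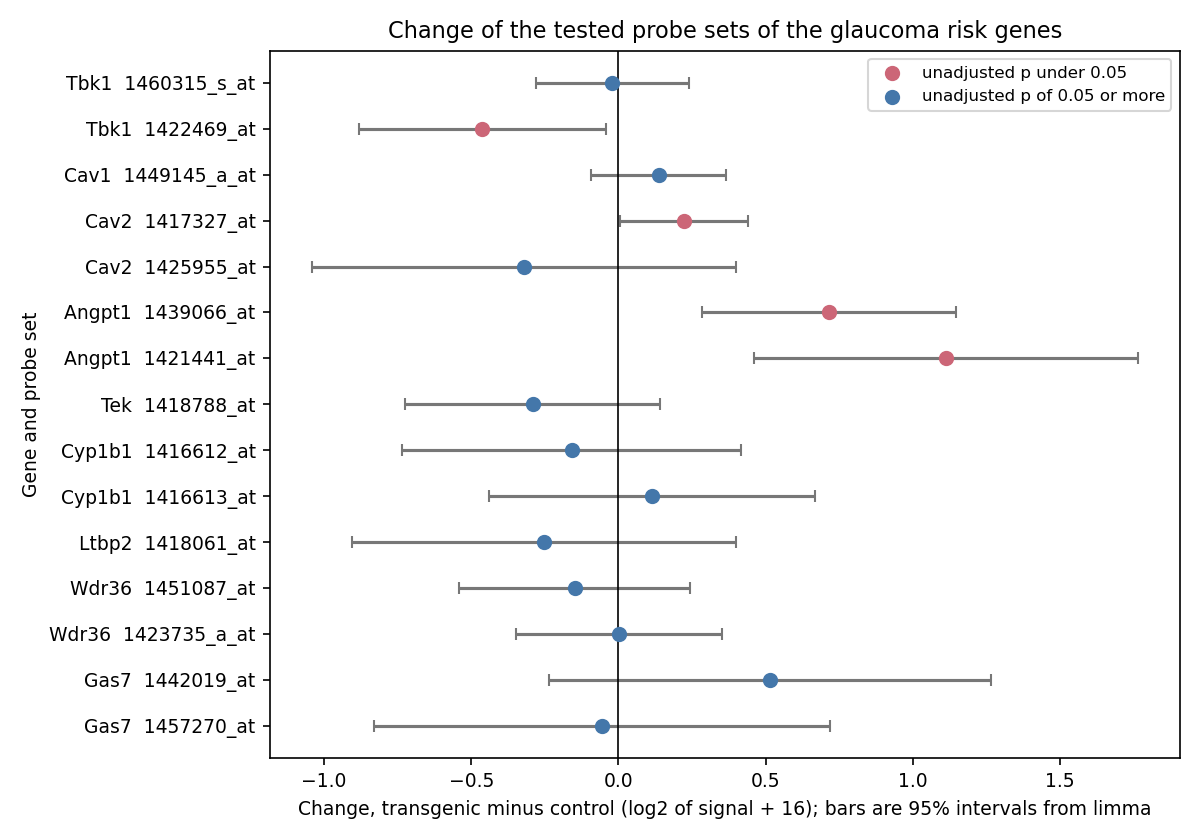
Change of each tested probe set (rows), transgenic minus control on the log2(signal + 16) scale, with the 95% interval from limma before adjustment for multiple tests; red points have an unadjusted p under 0.05. Both Angpt1 points lie to the right, at 0.72 and 1.11, and 11 of the 15 intervals include 0.

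**Figure D5:**
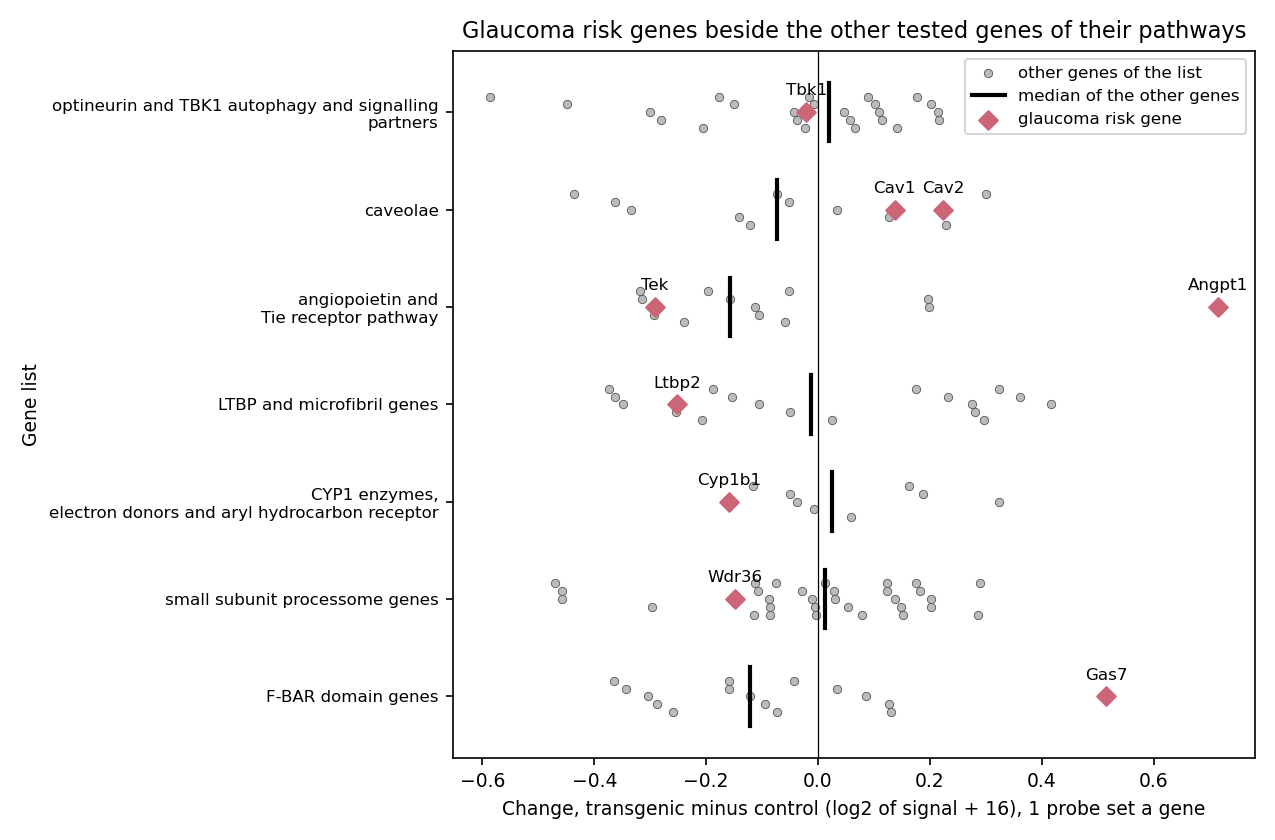
Change of the panel genes (red diamonds) beside the other tested genes of their lists (grey points), 1 probe set a gene, transgenic minus control on the log2(signal + 16) scale; black bars are medians of the other genes. Angpt1 at 0.72 and Gas7 at 0.52 lie above the other genes of their lists, and no point in the plot passed the adjusted threshold.

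Over the 7 pathway lists together, 118 genes were tested and 0 passed in limma. At an unadjusted p of 0.05 there were 6, or 5.08%, 5 higher and 1 lower, against 7.06% of all probe sets tested. Arrays did not overlap for 55.1% of the 118, against 44.7%. Each of the 118 was read from its brightest probe set, while the shares over all probe sets include dim ones. The shares are therefore not like for like. The median change of the 118 was −0.04, near the −0.02 of all probe sets.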

How the data were processed

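The table the authors deposited gives linear intensities of 45101 probe sets on 4 arrays, made with software not given in the sources used here. They share a 2% trimmed mean of 150 and were used without further scaling. The 64 array controls were left out. Intensities were transformed as log2(signal + 16), the control arrays were averaged on that scale, and probe sets above the 40th percentile of mean log2 value were tested (27022). The fit used limma 3.58.1 in R 4.3.3 with an intensity trend, two-sided tests and Benjamini-Hochberg adjustment over all probe sets tested. It had 1 residual degree of freedom, from the transgenic pair, and the spread was assumed equal in both groups. The code was run on simulated data whose planted changes were larger than most panel changes and whose control arrays were closer than the real pair. That run does not bear on changes as small as most seen here. Each list gene was read from its brightest probe set. In each pathway list the rule names genes past the threshold and the 3 largest changes; relatives of the panel genes and markers are named beside them. The panel and lists were chosen with earlier results of these data known. Alternatives covered scaling, pseudocount, filter, control arrays as separate samples, the replicate block, moderation and leaving out each array. Promoter windows were matched by symbol for 7 of the 10 genes, and 2 are printed. Array number limits the precision of all values.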

Additional observations from a re-analysis of the deposited data

How the results depend on the processing

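The count of all probe sets past the threshold, 21 with 15 higher and 6 lower, was 39 after quantile normalization (20 higher, 19 lower), 56 after median centring (47 higher, 9 lower), 135 with 4 separate arrays, 0 without the filter and 0 without the trend (limma; 2181 and 1059 at an unadjusted p under 0.05), and 14 to 33 when 1 control array was left out. Panel probe sets past the threshold stayed at 0 in all of these. With 4 separate arrays and the replicate block the counts were 1740 (6.44% of those tested) and 4 of the panel: both of Angpt1 (adjusted p = 0.00773 and 0.00842), Cav2 (0.0161) and the dimmer Tbk1 probe set (0.0329). The Angpt1 probe set at 0.00842 was tested only through its transgenic signals, and 3 of 14 passed without it, a count added after seeing the data. The arrays share only a number: the control pair is technical, and the deviations of same-numbered arrays correlated at 0.10 across probe sets.

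On the probe set with the highest mean, Cav1, Cav2, Ltbp2, Tek and Angpt1 kept their direction in all 15 settings, from 0.07 to 0.18, 0.14 to 0.25, −0.37 to −0.14, −0.33 to −0.22 and 0.52 to 0.91. Most settings could not have turned it. Filter, moderation and the handling of the control arrays leave the change itself as it was. With groups that do not overlap, another pseudocount or leaving out 1 array cannot turn the sign, so only the scalings could. Leaving out 1 array turned the sign of Wdr36 (−0.31 to 0.012), Cyp1b1 (−0.47 to 0.15), Tbk1 (−0.073 to 0.031) and Gas7 (−0.0039 to 1.04), and median centring put Tbk1 at 0.0094. Another probe set turned the sign for Wdr36 (0.0030), Cyp1b1 (0.11), Cav2 (−0.32; mean over its probe sets −0.049) and Gas7 (−0.055, −0.49, −0.25 and −0.12; mean −0.080). The median of the Optn and Tbk1 partners was 0.050 after median centring, −0.0064 without the filter, 0.047 at the 60th percentile and −0.028 to 0.028 with 1 array left out. That range was −0.16 to −0.0067 for the caveola list, −0.074 to 0.070 for the LTBP list, −0.17 to −0.083 for the F-BAR list, −0.19 to −0.058 for the angiopoietin list, 0.021 to 0.12 for the CYP1 list and 0.0054 to 0.065 for the processome list. Leaving out a transgenic array left no test. The cause of these shifts was not tested.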

Other observations

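Further genes tied to eye pressure or to the front of the eye lay in the pathway lists, and none passed the threshold in limma. They were chosen for their known role after the values were computed. Loxl1, an enzyme that cross-links elastic fibers and a risk gene of exfoliation glaucoma, gave 607 and 579.9 on the control against 709 and 734 on the transgenic arrays, a change of 0.28 ± 0.12 (log2, SE; adjusted p = 0.679). Foxc1, a transcription factor of anterior segment formation, gave 495 and 543 against 404 and 436, a change of −0.29 ± 0.14 (adjusted p = 0.715). Efemp1, a matrix glycoprotein, gave 2980 and 3093 against 2764 and 2694, a change of −0.15 ± 0.10 (adjusted p = 0.825). Tgfb2, the main TGF-beta of aqueous humor, gave 599.9 and 505 against 652 and 596, and these groups overlapped.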
